A study of Homo sapiens with 4 samples.

Results

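The regions described here were 1617 BrdU peaks that lay between 2 convergent protein-coding genes, that is, with the nearest gene on the left transcribed from the plus strand and the nearest gene on the right from the minus strand, so that both genes pointed their 3′ ends at the peak. They were 4.86% of the 33295 peaks in the deposited list. A peak was included if it lay on chromosomes 1 to 22, overlapped no protein-coding or lncRNA gene of GENCODE version 44, and had at least 1 of the 2 gene ends within 100 kb. Of the 32710 autosomal peaks, 17185 overlapped a protein-coding gene and 4484 a lncRNA gene only. A further 537 peaks lay between convergent genes but more than 100 kb from both of them, and 336 lay before the first or after the last protein-coding gene of a chromosome. The same rule placed 2167 peaks between divergent genes, which face each other with their starts, and 4264 between genes on the same strand. The arrangement came from the annotation alone, and whether the flanking genes were transcribed in these cells was not analysed here.

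BJ-hTERT cells are human fibroblasts immortalized with telomerase. They were synchronized by serum starvation, released, pulsed with BrdU for 1 h and collected 16, 19, 22, 24 and 28 h after release, in 2 repeats, without any other treatment. BrdU-labelled DNA was immunoprecipitated and sequenced, and peaks were identified against Input DNA at each timepoint. The list holds positions only, so every value below was taken over the 5 timepoints and both repeats together, no spread between repeats could be given, and the depth behind a peak is unknown. RNAPII and PCNA ChIP-Seq samples, 1 each at 14 and 16 h, were not analysed here.

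BrdU is a thymidine analog that cells build into newly synthesized DNA, and a local surplus of BrdU signal was read in the study as a place where replication forks slow down or pause. RNAPII does not stop at the annotated end of a gene. It transcribes past the polyadenylation signal before it is released, so that between convergent genes the polymerases of both genes move towards each other, and a replication fork that enters the stretch from either side meets 1 of them head on after having followed the other.

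3 of the peaks closest to a gene end, 1 per gap, are shown first, because they lie in the stretch just past the end of a gene. The sequences are the whole peaks, from the plus strand of hg38. Capitals mark the polyadenylation hexamer AATAAA or its reverse complement TTTATT.
PROC-IWS1 (chr2:127435923-127436189): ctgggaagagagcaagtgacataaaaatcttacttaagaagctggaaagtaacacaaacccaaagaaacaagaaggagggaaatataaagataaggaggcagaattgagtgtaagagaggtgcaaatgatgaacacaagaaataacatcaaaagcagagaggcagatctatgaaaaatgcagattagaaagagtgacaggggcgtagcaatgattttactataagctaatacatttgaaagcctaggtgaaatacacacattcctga
BTF3-ANKRA2 (chr5:73505696-73505907): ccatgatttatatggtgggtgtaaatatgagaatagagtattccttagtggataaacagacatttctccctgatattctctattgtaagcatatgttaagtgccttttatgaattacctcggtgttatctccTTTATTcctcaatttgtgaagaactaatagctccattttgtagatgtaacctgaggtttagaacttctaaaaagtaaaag
BZW1-CLK1 (chr2:200852571-200852862): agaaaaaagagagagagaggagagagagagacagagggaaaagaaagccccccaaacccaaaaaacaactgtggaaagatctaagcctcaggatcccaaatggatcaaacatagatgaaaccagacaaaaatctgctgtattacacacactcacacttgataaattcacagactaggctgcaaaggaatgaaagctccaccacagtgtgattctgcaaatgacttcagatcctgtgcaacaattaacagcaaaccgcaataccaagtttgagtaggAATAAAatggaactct

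The PROC-IWS1 peak lay 17 bp from the end of IWS1, which encodes a partner of the elongation factor Spt6, and 6680 bp from the end of PROC, which encodes the anticoagulant protein C. Its 267 bases held neither form of the hexamer. The BTF3-ANKRA2 peak lay 28 bp from the end of BTF3, a subunit of the nascent polypeptide-associated complex, and held 1 hexamer in its 212 bases. This hexamer read TTTATT, so that AATAAA lay on the strand opposite to that of BTF3. The BZW1-CLK1 peak lay 146 bp from the end of CLK1, a kinase of splicing factors, with 1 hexamer in 292 bases. That hexamer read AATAAA on the plus strand, also opposite to the strand of CLK1. Each of the 3 was a single peak that no other peak overlapped, none was a repeat array, and their AT content lay between 58.9% and 67.0%.

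The next set shows the sites where most peaks of the list lay on top of each other, and the centre of the widest peak. Shown are 210 central bases of each of the 5 deepest sites, the widest among those of equal depth, and 267 central bases of the widest peak, again from the plus strand of hg38. Capitals mark TTCTCCA in the MRPL23-IGF2 sites, GATG in the UNCX-MICALL2 site, which are the most frequent words of 7 and 4 bases in these sites, and the first of 3 copies of an 89 bp unit in COPS7B-NPPC.
MRPL23-IGF2 (chr11:2048427-2048636): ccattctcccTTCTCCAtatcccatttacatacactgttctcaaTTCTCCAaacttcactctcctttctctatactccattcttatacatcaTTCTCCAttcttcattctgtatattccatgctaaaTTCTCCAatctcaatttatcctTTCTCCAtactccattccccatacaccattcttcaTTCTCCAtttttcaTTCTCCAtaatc
MRPL23-IGF2 (chr11:2056043-2056252): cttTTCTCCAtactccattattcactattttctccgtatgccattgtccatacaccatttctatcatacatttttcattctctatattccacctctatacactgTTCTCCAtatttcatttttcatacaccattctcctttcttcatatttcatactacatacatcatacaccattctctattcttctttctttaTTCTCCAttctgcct
MRPL23-IGF2 (chr11:2065473-2065682): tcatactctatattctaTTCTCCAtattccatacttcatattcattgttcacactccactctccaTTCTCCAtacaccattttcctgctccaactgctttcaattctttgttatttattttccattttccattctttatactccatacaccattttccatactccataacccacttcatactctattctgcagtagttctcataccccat
MRPL23-IGF2 (chr11:2059868-2060077): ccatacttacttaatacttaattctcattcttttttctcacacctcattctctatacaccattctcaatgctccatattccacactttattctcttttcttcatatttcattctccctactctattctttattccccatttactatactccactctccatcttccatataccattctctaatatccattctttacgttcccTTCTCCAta
UNCX-MICALL2 (chr7:1379210-1379419): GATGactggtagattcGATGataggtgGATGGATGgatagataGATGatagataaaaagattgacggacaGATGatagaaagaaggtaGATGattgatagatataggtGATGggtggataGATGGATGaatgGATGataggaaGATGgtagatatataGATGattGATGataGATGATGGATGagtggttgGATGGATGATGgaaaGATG
COPS7B-NPPC (chr2:231833557-231833823): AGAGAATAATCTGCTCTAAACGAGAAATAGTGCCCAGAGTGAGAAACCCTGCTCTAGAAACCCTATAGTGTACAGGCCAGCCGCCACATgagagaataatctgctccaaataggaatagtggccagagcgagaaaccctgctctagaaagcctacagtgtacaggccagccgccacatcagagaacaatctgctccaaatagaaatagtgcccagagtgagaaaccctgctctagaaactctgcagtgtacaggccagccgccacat

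These sites were repetitive without being perfect repeats. In the MRPL23-IGF2 sites TTCTCCA stands in irregular steps among related words such as ttctcta and tactcca, whereas the stretch of COPS7B-NPPC is 3 units of 89 bp long.

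The peaks lay in 405 of the 3242 gaps between convergent genes, or 12.5%. The median gap was 12.2 kb, while the median gap with a peak was 71.4 kb. Peaks that overlapped or touched were joined into 1091 merged sites. A single site was found in 208 gaps, 2 sites in 85 and 3 or more in 112. Of these, 15 had 10 or more, and the 10 richest gaps held 233 sites, 21.4% of all. The share of gaps with a peak was higher for larger gaps, from 1.02% of gaps up to 5 kb (11 of 1083) to 17.5% of those from 20 to 50 kb (86 of 491) and 36.1% of those over 200 kb (114 of 316). No member overlapped a peak outside the set.

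Free sequence was the part of a gap outside lncRNA genes and within 100 kb of a gene end, and convergent gaps had 108 Mb of it. They held 14.9 peaks per Mb (95% exact Poisson interval 14.2 to 15.7), divergent gaps 14.9 (14.3 to 15.6) and same-strand gaps 15.0 (14.5 to 15.4), so that the intervals overlapped almost completely. This nearness depended on the gaps MRPL23-IGF2 and COPS7B-NPPC. The peak density divided by that of the other arrangements was 0.997 with them and 0.892 without them, a setting chosen after the values were seen. Counted as merged sites, convergent gaps had 10.1 per Mb (9.47 to 10.7), against 11.6 (11.0 to 12.1) in divergent and 11.5 (11.1 to 11.9) in same-strand gaps. These intervals cover counting error only, sites in a gap are not independent, and the difference was not tested. Convergent gaps had fewer sites per Mb than the other gaps on 14 of 22 chromosomes. Their density ranged from 5.11 sites per Mb on chromosome 6 to 20.4 on chromosome 5. It was lower than in the other arrangements in gaps of 50 to 100 kb, with 8.89 sites per Mb (7.56 to 10.4) against 12.9 (11.6 to 14.2) in divergent and 15.0 (14.0 to 16.1) in same-strand gaps, and in gaps of 100 to 200 kb, with 8.79 (7.53 to 10.2) against 14.6 and 14.6. In the other 5 size classes convergent gaps had the highest value of the 3 arrangements. Up to 5 kb it was 8.54 (4.88 to 13.9) against 5.61 in divergent and 7.64 in same-strand gaps, and from 5 to 10 kb 12.4 (8.62 to 17.4) against 8.30 and 8.03. From 10 to 20 kb it was 12.5 (9.72 to 15.7) against 10.7 and 11.1, from 20 to 50 kb 12.03 (10.3 to 14.0) against 10.7 and 11.2, and over 200 kb 10.1 (9.21 to 11.1) against 9.27 and 8.71.

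**Figure D1:**
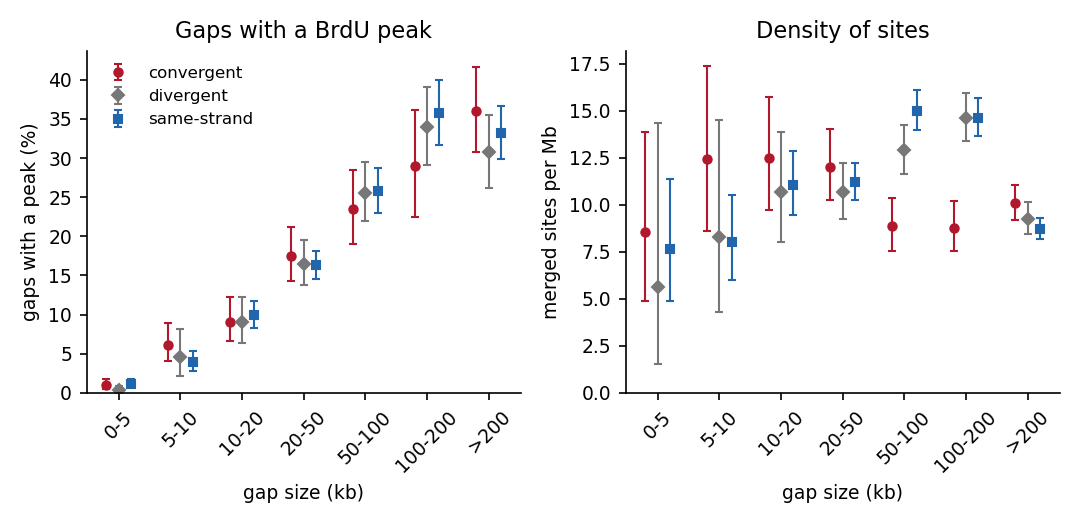
Share of gaps with a BrdU peak (left, % of gaps, 95% exact Clopper-Pearson intervals) and merged BrdU sites per Mb of free sequence (right, 95% exact Poisson intervals) by gap size in kb, for convergent (red), divergent (grey) and same-strand gaps (blue). The share is higher for larger convergent gaps and reaches 36.1% over 200 kb, and the red points are the lowest of the 3 in density at 50 to 100 kb (8.89 sites per Mb) and 100 to 200 kb (8.79) and the highest in the other 5 classes.

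To describe how far the peaks lay from the 3′ ends, each was set beside every position that an interval of its width could take in the same gap under the same rule. All positions were counted, none was drawn at random, and the values are descriptions without a test. The median distance from a convergent peak to the nearest 3′ end was 23.8 kb, with quartiles of 7.97 and 57.3 kb, and the median over the positions was 23.1 kb. On average 52.8% of the positions were closer to a 3′ end than the peak, where 50% is the middle. Of the 1617 peaks, 862 lay farther from a 3′ end than the median position in their gap, which is 53.3% (95% exact Clopper-Pearson interval 50.8 to 55.8%). The same share was 50.2% (48.1 to 52.3%) for divergent and 51.2% (49.7 to 52.7%) for same-strand peaks, for which the nearest gene end of either kind was taken.

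This small shift away from the 3′ ends rested on 1 gap, MRPL23-IGF2, in which 100 of 102 peaks lay farther than the median position. Without it, a setting chosen after the values were seen, 762 of 1515 peaks lay farther, or 50.3% (47.7 to 52.8%). COPS7B-NPPC, the gap with the next highest number of peaks, went the other way, with 31 of 71 farther, and without it alone the share was 53.8% (51.2 to 56.3%). Together these 2 gaps held 173 of the peaks (10.7%) but only 28 of the sites (2.57%). Without both, also chosen after the values were seen, 731 of 1444 peaks lay farther than the median position, or 50.6% (48.0 to 53.2%), and the median distance was 21.1 kb for both the peaks and the positions. Counted as sites, 52.1% (49.0 to 55.1%) of 1091 lay farther than the median position. With a limit of 50 kb in place of 100 kb the direction turned, with 47.6% (44.7 to 50.6%) of 1144 peaks farther. The mean share of closer positions was over 50% on 10 of 22 chromosomes, and on chromosome 11 it went from 73.9% to 43.2% when MRPL23-IGF2 was left out.

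**Figure D2:**
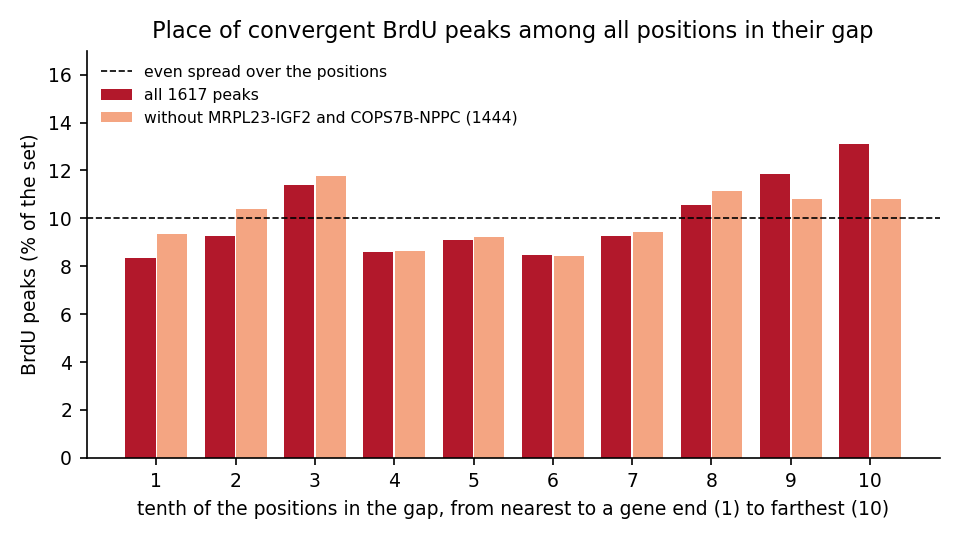
Share of convergent BrdU peaks (%) when the positions of their gap are ranked by distance to a gene 3′ end and cut into 10 equal parts, from the nearest (1) to the farthest (10), for all 1617 peaks (dark red) and for the 1444 outside MRPL23-IGF2 and COPS7B-NPPC (light red), with a dashed line at 10%. The farthest part holds 13.1% of all peaks but 10.8% without the 2 gaps, and the nearest part 8.35% and 9.35%.

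Close to the ends, the share of peaks was near that of the positions. Within 1 kb of a 3′ end lay 62 peaks in 41 gaps, 33 of them by the left gene and 29 by the right. They were 3.83% of the peaks (2.95 to 4.89%), and 4.56% of the positions lay as close. Within 2 kb the shares were 7.67% (6.42 to 9.07%) and 8.70%, and within 5 kb, where 300 peaks in 150 gaps lay, 18.6% (16.7 to 20.5%) and 18.4%. The 3 intervals of the peaks all hold the share of the positions. For divergent peaks the share within 1 kb of a gene start was 2.17% (1.60 to 2.87%), with 3.02% of the positions, and that interval does not hold the share of the positions. Nor does that of same-strand peaks within 1 kb of either kind of end, with 3.03% (2.53 to 3.58%) and 4.05% of the positions. The share of peaks divided by that of the positions was under 1 in all 3 arrangements, with 0.841 for convergent, 0.717 for divergent and 0.748 for same-strand peaks.

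Expressed as density, convergent gaps had 8.60 sites per Mb (6.25 to 11.5) in the first kb past a 3′ end, 10.0 (7.26 to 13.5) from 1 to 2 kb and 11.8 (9.75 to 14.0) from 2 to 5 kb. From 10 to 25 kb and from 25 to 50 kb the density was 9.74 (8.55 to 11.0) and 8.65 (7.51 to 9.91), and at 50 to 100 kb it was 11.0 (9.77 to 12.3). The intervals of all neighbouring distances overlapped, those at 25 to 50 kb and 50 to 100 kb only from 9.77 to 9.91. In same-strand gaps, the first kb had 8.12 sites per Mb (6.07 to 10.7) where a 3′ end was nearest and 5.78 (4.01 to 8.08) where a start was nearest. Of the same-strand peaks, 49.7% (48.2 to 51.2%) were nearer to the 3′ end than to the start, and so were 51.4% of the positions.

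**Figure D3:**
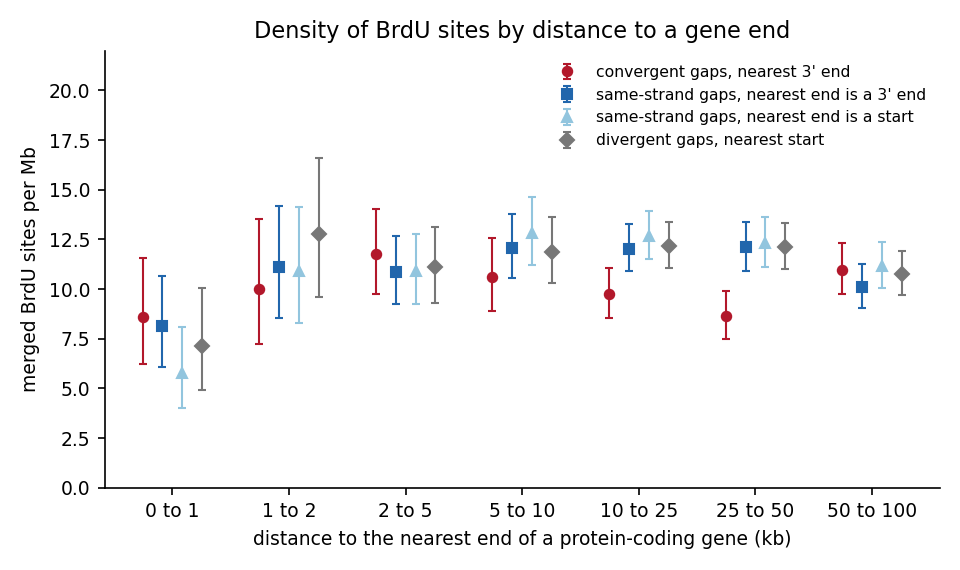
Merged BrdU sites per Mb of free sequence by distance to the nearest end of a protein-coding gene in kb, with 95% exact Poisson intervals, in convergent gaps (red), in same-strand gaps split by the kind of end (dark and light blue) and in divergent gaps (grey). The red points stay between 8.60 and 11.8 sites per Mb from the gene end to 100 kb.

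The gap between COPS8 and COL6A3 held the most sites (chr2:237100475-237324002, 224 kb). COPS8 encodes a subunit of the COP9 signalosome and COL6A3 a chain of collagen VI, which fibroblasts secrete. Its 62 peaks formed 54 sites and lay from 1.16 kb past the end of COPS8 to 96.5 kb from the nearest end, 31 nearer to each gene. Here 46.5% of the positions were closer to an end than the average peak, and no base lay under more than 2 peaks. Among gaps of 20 kb or more it also ranked among the 3 with the most sites per kb, with 0.272, after PPIF-ZCCHC24 with 0.296 and before CWC27-ADAMTS6 with 0.216.

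The gap between MACIR and NUDT12, which encodes a hydrolase of NAD(H), came next (chr5:103278661-103548854, 270 kb), with 46 peaks in 40 sites from 3.27 to 99.8 kb from an end. TMTC3-KITLG (chr12:88199888-88492792, 293 kb) had 27 peaks in 24 sites. KITLG encodes the ligand of the KIT receptor, and 1 peak lay 0.738 kb past its end, although 22 of the 27 were nearer to TMTC3. FAS-CH25H (chr10:89029606-89205628, 176 kb) lies between the gene of a death receptor and that of cholesterol 25-hydroxylase and had 29 peaks in 20 sites. Of these, 26 were nearer to CH25H. The average peak had 56.5% of the positions closer to an end in MACIR-NUDT12, 46.5% in TMTC3-KITLG and 39.9% in FAS-CH25H, so that the rich gaps did not share a place for their peaks. None of the peaks in these 4 gaps was a tandem array, and their median AT content was 61.2% in COPS8-COL6A3, 62.1% in MACIR-NUDT12, 63.7% in TMTC3-KITLG and 63.6% in FAS-CH25H.

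In PPIF-ZCCHC24 (chr10:79355335-79382324, 27.0 kb), next to the gene of the mitochondrial cyclophilin, 10 peaks formed 8 sites, 5 peaks on each side. CWC27-ADAMTS6 (chr5:65102413-65148737, 46.3 kb), between the genes of a spliceosome protein and a metalloprotease, had 11 peaks in 10 sites, with 32.6% of the positions closer than the average peak. The 3 shortest gaps with a peak held a single one each. In PPIA-H2AZ2 (chr7:44824565-44826790, 2.23 kb), between the genes of cyclophilin A and a histone variant, it lay 273 bp from PPIA. In NFAT5-NQO1 (chr16:69704667-69706995, 2.33 kb) it lay 153 bp from NQO1, which encodes a quinone reductase. In TTC31-LBX2 (chr2:74494560-74497516, 2.96 kb) it lay 1137 bp from LBX2, a homeobox gene.

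**Figure D4:**
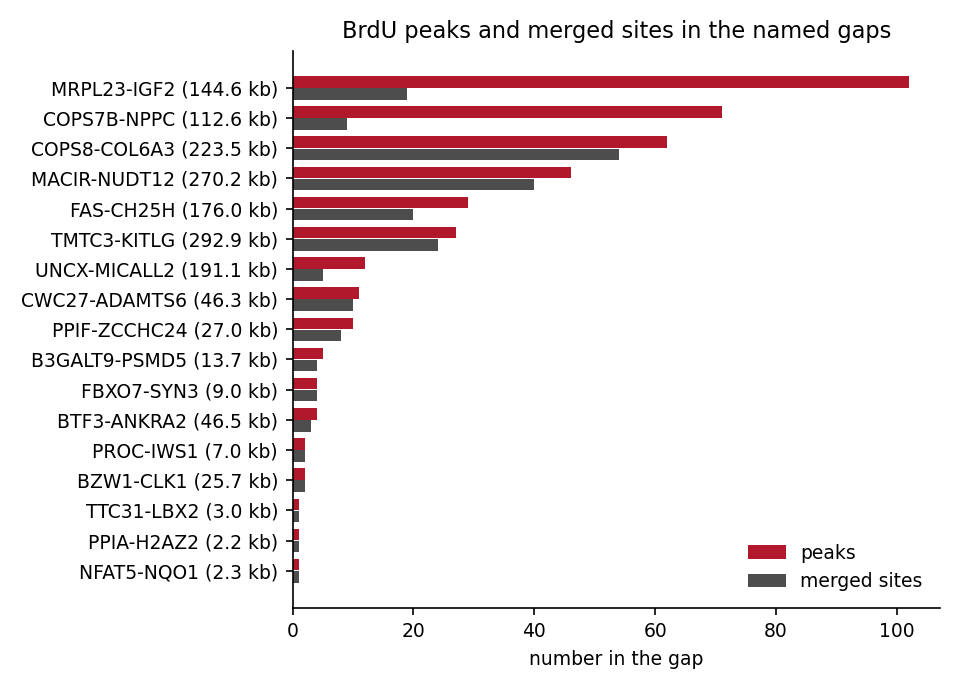
Number of BrdU peaks (red) and of merged sites (grey) in the 17 gaps chosen for description, with the gap size in kb beside the names of the left and the right gene. Peaks and sites are close in COPS8-COL6A3 (62 and 54) and far apart in MRPL23-IGF2 (102 and 19) and COPS7B-NPPC (71 and 9).

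MRPL23-IGF2 (chr11:1984523-2129111, 145 kb) lies between the gene of a mitochondrial ribosomal protein and the imprinted gene of insulin-like growth factor 2, and also holds the imprinted lncRNA gene H19, whose sequence was not part of the free sequence. Of its 102 peaks, 100 lay in a block of 24.4 kb (chr11:2041792-2066236) that starts 57.3 kb past the end of MRPL23 and ends 62.9 kb from the end of IGF2, close to the middle of the gap. They formed 18 sites of 257 to 2975 bp, which covered 70.6% of the block and took from 1 to 5 overlapping peaks, 5 in 8 of the sites. Between 76.6% and 98.9% of the positions in the gap were closer to a gene end than these sites. Each of the 18 sites matched itself best at an offset of 7, 14 or 28 bp, at 50.8% to 61.7% of its bases, which is under the 70% that defined a tandem array. The word TTCTCCA occurred 17.8 times per kb of these sites on the plus strand and not at all on the minus strand. In the sequence of all convergent gaps outside lncRNA genes it occurred 0.149 times per kb on the plus and 0.152 times on the minus strand. The word was chosen as the most frequent of 7 bases in these sites, so a surplus over other sequence is built in. The block had an AT content of 64.4%.

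COPS7B-NPPC (chr2:231809255-231921808, 113 kb) lies between the genes of another COP9 signalosome subunit and of C-type natriuretic peptide. Of its 71 peaks, 70 lay in a block of 26.8 kb (chr2:231822803-231849577) that starts 13.5 kb past the end of COPS7B, and formed 8 sites that covered 97.2% of it. The sites matched themselves best at an offset of 89 or 90 bp, at 42.8% to 82.8% of their bases, and 24 of the peaks were tandem arrays at 89 bp. The widest peak, of 9236 bp, lay here and matched itself at 61.6% of its bases. Depth ranged from 2 to 4 peaks. The AT content was 52.2%, lower than that of the MRPL23-IGF2 block, and from 23.1% to 68.0% of the positions were closer to an end than its 8 sites, so that the 2 blocks differed in sequence and in place.

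**Figure D5:**
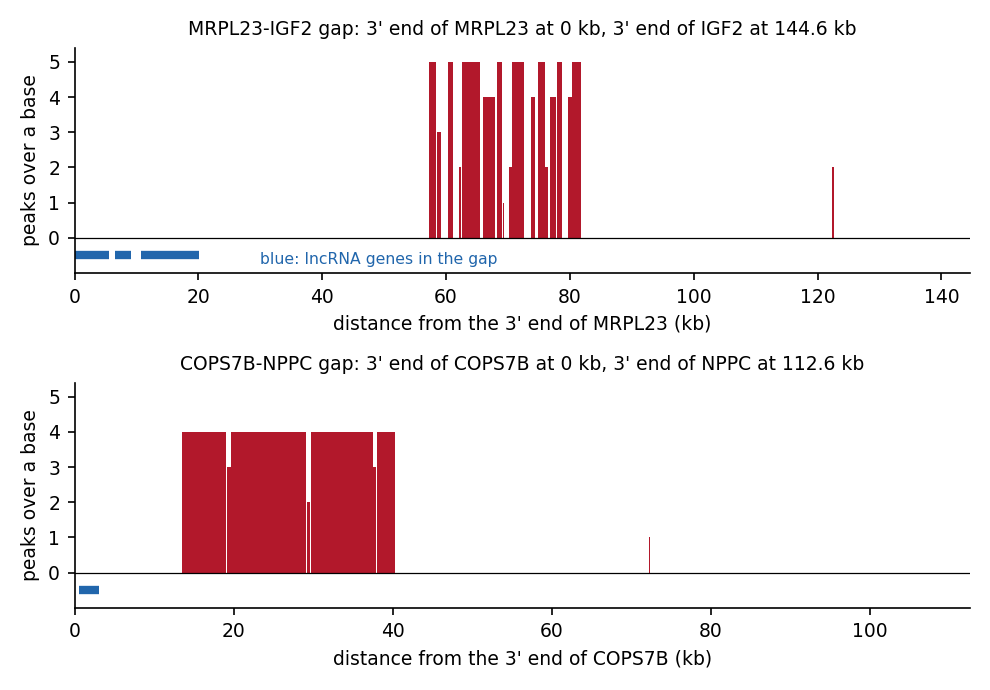
Merged BrdU sites (red bars, drawn to width) by distance in kb from the 3′ end of the left gene in MRPL23-IGF2 (top) and COPS7B-NPPC (bottom), with the highest number of overlapping peaks in each site as height and lncRNA genes of the gap in blue. In the top gap 18 sites fill a block from 57.3 kb on, with up to 5 peaks, and in the bottom gap 8 sites fill a block from 13.5 kb on, with up to 4.

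Peaks that overlap each other were compared as depth, the highest number of peaks over a base of a merged site. Of the 1091 convergent sites, 810 had a depth of 1, 193 of 2, 55 of 3, 18 of 4 and 15 of 5. The share with 2 or more was 25.8% (23.2 to 28.5%), against 20.5% (18.5 to 22.5%) of 1677 divergent and 20.4% (19.0 to 21.8%) of 3280 same-strand sites. The odds ratio was 1.35 against divergent sites (two-sided Fisher's exact test, Benjamini-Hochberg over 8 tests, adjusted p = 0.00524) and 1.36 against same-strand sites (Fisher's exact test, adjusted p = 0.00179). These tests cover counting error only, since sites of 1 list are not replicates. Neither difference passed the threshold without the 2 gaps, with 24.0% (21.4 to 26.7%) of 1063 sites and adjusted p = 0.131 and 0.111 by the same exact test, while without either gap alone both passed, with adjusted p of 0.0498 and 0.0369 without MRPL23-IGF2. With 1 site per gap the shares were 27.2% of 405 convergent, 23.8% of 547 divergent and 23.3% of 1161 same-strand sites, with odds ratios of 1.20 and 1.23 and adjusted p = 0.931 in both exact tests.

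Deeper sites were wider and more repetitive, although a site of several peaks is their union and cannot be narrower than any of them. The median width was 260 bp at a depth of 1, 415 bp at 2, 616 bp at 3, 1115 bp at 4 and 924 bp at 5. A site that matched itself at 50% or more of its bases made up 10.5% of the sites of depth 1, 31.6% of depth 2, 85.5% of depth 3, 94.4% of depth 4 and all 15 of depth 5. Tandem arrays were 3.46% of the sites of depth 1 and 5 of the 15 of depth 5. The part of the repeated sequence in the overlap of peaks was not tested. Of the 18 sites of depth 4, 10 lay in MRPL23-IGF2 or COPS7B-NPPC, so the values at depths of 4 and 5 rest largely on these 2 gaps. At a depth of 3 it was 3 of 55 sites. The 15 sites of depth 5 lay in 8 gaps, with 8 in MRPL23-IGF2. The widest of those outside it lay in UNCX-MICALL2 (chr7:1378464-1380165, 1702 bp), 48.3 kb from MICALL2 and 141 kb from the homeobox gene UNCX. There the sequence matched itself at 57.3% of its bases at an offset of 4 bp. Among the others, SDSL-LHX5 had a site 449 bp past the end of SDSL that matched itself at 58.5% at 4 bp, ARV1-FAM89A one at 73.8% at 20 bp, FOXL3-PDGFA one at 73.8% at 46 bp and GATA6-CTAGE1 one at 84.4% at 84 bp. SDSL-LHX5 was thus the only gap with a site of depth 5 within 1 kb of a gene end.

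Convergent peaks had a median width of 299 bp, with quartiles of 227 and 439 bp. Their AT content was 59.8% ± 5.63 (SD, n = 1617 peaks), which is 4.14 percentage points above the 55.6% of the positions in the same gaps. It was 59.4% for divergent and 59.3% for same-strand peaks, with 56.2% and 56.3% of the positions. The polyadenylation hexamer, as AATAAA or TTTATT, was found 1.40 times per kb of convergent peaks and 1.84 times per kb of the positions. It was thus less frequent in the peaks although they were richer in A and T. This was not particular to convergent peaks. Divergent peaks had 1.329 of these hexamers per kb against 1.988 in the positions, and same-strand peaks 1.305 against 1.963. The words of alternating C and A, CACACA and ACACAC, with their reverse complements TGTGTG and GTGTGT, were counted with overlaps and were found 21.8 times per kb of peaks and 3.71 times per kb of the positions. Divergent peaks had 22.8 against 3.95 of these words per kb, and same-strand peaks 20.3 against 3.74.

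A tract was a perfect repeat of at least 20 bp whose unit had 6 bp or fewer. Such tracts lay in 94 convergent peaks, 5.81% (4.72 to 7.07%), and in 5.96% of the positions. The smallest unit was 4 bp long in 40 of these peaks and 2 bp in 28. A peak was taken as a tandem array if shifting its sequence by some offset of up to 120 bp left at least 70% of the bases matched. Such arrays were 167 of the 1617 peaks, 10.3% (8.89 to 11.9%), in 60 gaps. The free sequence of the gaps with a peak was cut into tiles of 299 bp. Of these tiles 1.30% met the same limit, with each gap weighted by its number of peaks. Weighted by the number of sites, the share of tiles was 0.659%. The arrays had a median offset of 57 bp, and 155 of them had an offset over 6 bp. Among sites, 5.50% (4.22 to 7.02%) were arrays in convergent gaps, 5.49% (4.45 to 6.69%) in divergent and 6.80% (5.96 to 7.71%) in same-strand gaps, with adjusted p = 1 and 0.363 in Fisher's exact test. The shares with a tract were 4.86% (3.66 to 6.31%), 5.01% (4.01 to 6.16%) and 4.82% (4.11 to 5.61%), with adjusted p = 1 in both exact tests. The shares closer to an end than the median position were 47.9% (44.9 to 51.0%), 50.1% (47.7 to 52.5%) and 48.2% (46.5 to 50.0%), with adjusted p = 0.552 and 1 in the exact tests. None of these 6 comparisons passed the threshold of 0.05, which does not show that the arrangements were alike.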

How the data were processed

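BrdU-Seq peaks of synchronized BJ-hTERT cells were analysed as deposited by the authors, who aligned reads to hg38 with Bowtie 2 and identified peaks in each timepoint against Input with MACS2 2.1.0. The deposited list gives chromosome, start and end in bp, without counts, scores, timepoints or repeats. The peaks of all timepoints stand in it together, and the authors analysed the repeats together, by steps that are not described further. Starts were read as 0-based and are printed 1-based. Genes were those of GENCODE version 44, on the same build. The regions, gene lists and measures were chosen with earlier results of these data known.

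A gap was the stretch between consecutive protein-coding genes or runs of overlapping ones. For each peak, all positions of its width in the free sequence of the gap were enumerated, leaving out lncRNA genes and unknown bases. Intervals are at 95% and cover counting error only. The tests were 8 two-sided Fisher's exact tests with Benjamini-Hochberg adjustment. Named genes flank the 5 gaps with the most sites, the 5 peaks closest to a gene end (1 per gap), the 5 deepest sites, the 3 shortest gaps with a peak, the widest peak and the 3 gaps of 20 kb or more with the most sites per kb. The sequences and values of 2 of the 5 peaks closest to a gene end are not reported here. Other genes with a site of depth 5 were named after their values were seen. Families were counted by symbol prefix. Alternatives changed the unit, limit, window, room, gene set, chromosomes, definitions of repeats and the gaps included. Distances, positions and repeat searches were checked on simulated data. Python 3.11.15, numpy 2.4.6, scipy 1.17.1 and matplotlib 3.10.9 were used.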

Additional observations from a re-analysis of the deposited data

How the results depend on the processing

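Of 61 alternatives to 15 results, 36 stayed within the interval of the reported value or, for a test, kept the direction and the side of the threshold, 15 moved out of the interval, 4 lost a call and 6 reversed a direction that was tested or whose interval lay on 1 side of even. Counting also the values whose interval held the even value, 15 alternatives lay on the other side of it. The cause was not tested unless stated. The share of peaks farther than the median position fell under 50% in gaps without a lncRNA gene (49.8%) and with a limit of 50 kb (47.6%), and was 50.3% without MRPL23-IGF2 and 50.6% without MRPL23-IGF2 and COPS7B-NPPC. The share near a 3′ end, divided by that of the positions, was 0.841 within 1 kb and 0.881 within 2 kb, against 1.01 within 5 kb, where the other alternatives that fell under 1 lay between 0.918 and 0.998. The density of convergent gaps divided by that of the others was 0.997 for peaks, 1.03 without chromosomes 19 and 21, 0.873 for sites, 0.931 in gaps of 5 to 100 kb, 0.922 with a limit of 50 kb, 0.892 without the 2 gaps and 0.852 for sites without them. The surplus of AT was 3.38 percentage points for sites and 3.51 without the 2 gaps. With tracts of 30 bp the share of peaks with a tract was 1.83 times that of the positions, against 0.976 at 20 bp and 1.09 at 12 bp. The share of arrays was 9.25 times that of the tiles at a self-match of 60% and 10.6 times without the 2 gaps, against 7.95. With peaks within 1 kb joined, the value was 35.5% of 908 joined sites. Joining puts no further peak over a base, so this value includes joined sites without overlapping peaks. It is therefore not a share by depth as defined above. For depth, the adjusted p of Fisher's exact tests was 0.931 against both arrangements with 1 site per gap, and 0.131 against divergent and 0.111 against same-strand sites without the 2 gaps. The directions that had not passed the test turned in Fisher's exact test with 1 site per gap, for tracts against same-strand sites (adjusted p = 0.952), arrays against divergent sites and closeness against same-strand sites (both adjusted p = 1), the last also without the 2 gaps (adjusted p = 1). The sites kept as 1 per gap lay nearer to the ends than all sites did, and whether this came from which site was kept was not tested. With each convergent gap counted once for its peaks, the share farther than the median position was 51.8%, on the other side of even from the kept sites. Of the kept sites, 54.3% of convergent, 55.8% of divergent and 54.2% of same-strand ones lay closer than the median position. Among all sites these shares were 47.9%, 50.1% and 48.2%. No paired analysis was possible because no sample or repeat is named in the list. The unknown depth limits what the absence of a peak in a gap can show. Peaks were identified at each of 5 timepoints, and no convergent site had more than 5 peaks over a base. The list does not name the timepoint of a peak, so whether overlapping peaks came from different timepoints was not tested.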

Other observations

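A gene of another type than protein-coding or lncRNA was overlapped by 37 of the 1617 convergent peaks, 2.29%, and by 3.49% of the positions in the same gaps. Of these peaks, 17 lay in PDZPH1P, a unitary pseudogene between MACIR and NUDT12, out of 46 peaks in that gap. DUXAP9 and DUXAP10, between POTEM and POTEG, and KIF28P, between SCCPDH and AHCTF1, held 3 each.

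The share of gaps with a peak next to members of gene families is given with 95% exact Clopper-Pearson intervals and without a test. The intervals are wide, and apart from that of the olfactory receptors they hold the share of all convergent gaps. Beside 12.5% of all convergent gaps, a peak was found in 3 of 76 gaps next to an olfactory receptor gene (3.95%, 0.822 to 11.1%). The median size of these gaps was 23.5 kb, and that of all convergent gaps 12.2 kb. Zinc finger (ZNF) genes flanked 108 gaps, of which 9 held a peak (8.33%, 3.88 to 15.2%), and solute carrier genes 143, of which 14 did (9.79%, 5.46 to 15.9%). The shares were 2 of 18 next to collagen genes (11.1%, 1.38 to 34.7%), 1 of 24 next to ribosomal protein genes (4.17%, 0.105 to 21.1%), whose gaps had a median of 1.87 kb, and 1 of 12 next to keratin and keratin-associated genes (8.33%, 0.211 to 38.5%). Of the 67 peaks next to collagen genes, 62 lay in COPS8-COL6A3.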
